A study of Macaca mulatta with 20 samples.

Results

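The 44 genes described here encode proteins of the synaptic vesicle, of its release and recovery, of the postsynaptic density and of the neuronal membrane. They were listed by name, and a gene was read from the probe sets whose only symbol in the array annotation was that gene. All 44 were named on the human arrays, among 19775 genes, through 99 probe sets. On the rhesus arrays 26 of the 44 were named, among 14132 genes, through 44 probe sets. The 18 genes without a probe set of their own symbol there were SNAP25, NSF, NAPB, CPLX1, SYT5, SYT11, SYT13, SYN1, SYP, SYNGR1, SYNGR3, RAB3C, SLC17A6, RIMS1, RIMS2, BSN, UNC13A and DLG4, and for these only human-array values are given.

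RNA of 5 rhesus macaque sources was hybridized, of which 4 were tissues (cerebral cortex, testis, thymus and pancreas) and 1 was a culture of immortalized fibroblasts. Aliquots of the same RNA of a source went onto 2 Human Genome U133 Plus 2.0 arrays and 2 Rhesus Macaque Genome Arrays, which made 20 arrays. The arrays of a source are technical replicates by their labels, which give no treatment, age or number of animals, so the p-values below measure only the spread between arrays of the same RNA. Macaque RNA on probes designed for human transcripts can meet mismatched bases. Values are log2 expression levels, 1 per probe set and array, and every gene, also in the shares of all genes given below, is read from its brightest probe set, that with the highest mean over the 10 arrays of a type. A gene was called higher or lower where limma gave an adjusted p under 0.05 with a log2 difference of at least 1.

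At a chemical synapse, a nerve ending stores transmitter in small vesicles. SNARE proteins of the vesicle and of the plasma membrane zip together to fuse them, synaptotagmins sense the calcium that triggers fusion, the active zone holds vesicles at the release site, and dynamin and its partners recover the membrane afterwards. On the receiving side, scaffold proteins hold receptors opposite the release site. Parts of this machinery also serve the release of hormones from endocrine cells and of the contents of the acrosome from sperm. Some of these genes are thus known outside the nervous system.

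The labels of the sources were checked against marker genes. Against the mean of the other 4 sources, cortex was higher for 10 of 10 cortical neuron markers on the human arrays and 4 of 6 on the rhesus arrays, where 1 of the 6, ENO2, was lower. Set against the other 3 sources outside cortex, pancreas was higher for 6 of 6 (human arrays) and 5 of 5 (rhesus arrays) exocrine markers and for 5 of 6 and 3 of 3 islet markers, testis for 6 of 8 and 7 of 7 Leydig and Sertoli markers and 4 of 8 and 4 of 5 germ cell markers, thymus for 7 of 8 and 4 of 4 thymocyte markers, and fibroblasts for 7 of 7 fibroblast markers on both. The pancreas arrays stood apart: the SD within the pair over the genes described here was 0.527 on the human and 0.357 on the rhesus arrays, against 0.130 to 0.350 and 0.121 to 0.182 in the other sources. Actin was 4.58 higher at its 3' than at its 5' probe set in pancreas on the rhesus arrays, against 2.07 to 2.66 in the other sources. On the human arrays this was 2.40 in pancreas and 2.03 to 2.47 elsewhere. Among 27 unspiked bacterial control probe sets, the highest value was 3.29 on the human and 3.79 on the rhesus arrays, which serves below as a background level.

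Nearly all of these genes had their highest level in cortex. On the human arrays 42 of 44 (95.5%) were called higher in cortex than in the mean of the other 4 sources, where 11.0% of all genes were, and on the rhesus arrays 26 of 26 were, where 16.6% of all genes were. None was called lower, against 9.99% and 21.1% of all genes, and none had an unadjusted limma p under 0.05 in that direction on either type (0 of 44 and 0 of 26). The median difference was 5.45 on the human and 6.76 on the rhesus arrays, against -0.039 and -0.117 over all genes. For 11 genes on the human and 8 on the rhesus arrays, no array outside cortex lay above the unspiked controls, and their differences have only a lower bound. Taken against the control level, these were at least 3.33 to 11.32 and 1.67 to 10.87, and the medians over all 44 and 26 genes with these bounds were 5.22 and 6.40. Counted against each source separately, 41 of 44 (6.38% of all genes) and 26 of 26 (9.23%) were higher in cortex than in all 4 others. The arrays of cortex lay above all 8 other arrays for 42 of 44 genes on the human and 26 of 26 on the rhesus arrays. This separation was not counted over all genes, so these counts have no share to be read against. RNA was taken from whole sources, so fewer cells of a type and less RNA per cell cannot be told apart.

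**Figure D1:**
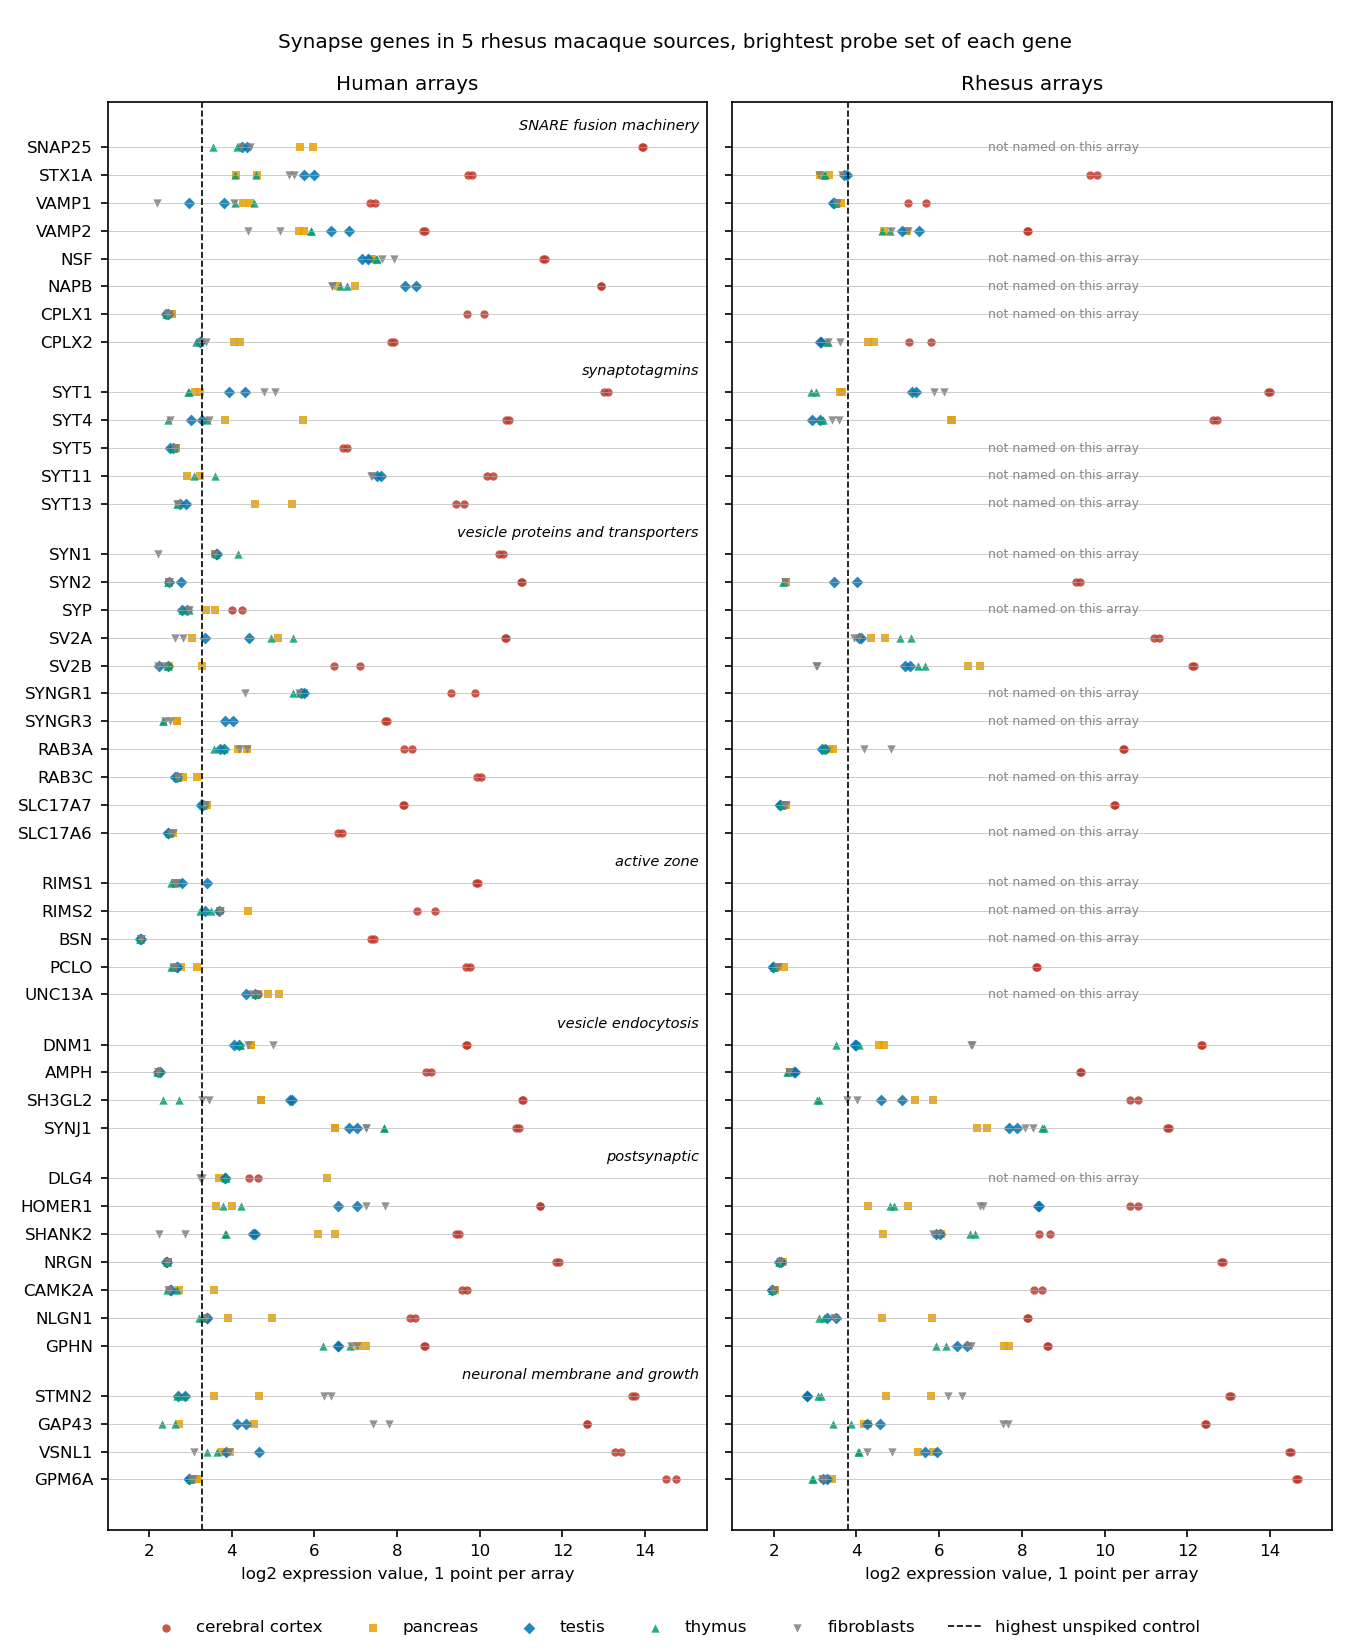
Log2 expression level of the brightest probe set of each synapse gene on the human arrays (left) and the rhesus arrays (right), with genes grouped by role, 1 point per array, colour by source, and a dashed line at the highest unspiked control (3.29 and 3.79). The cortex points lie above all other points for 42 of 44 and 26 of 26 genes, a count not made over all genes.

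Genes of the neuronal membrane and of growth were among those with the largest differences. All 4 were higher in cortex on both array types, by 8.11 to 11.6 on the human and 7.46 to 11.5 on the rhesus arrays. GPM6A, a neuronal membrane glycoprotein, had levels of 14.74 and 14.49 on the human cortex arrays, and the other 8 human arrays had a lowest, median and highest level of 2.96, 3.01 and 3.19. Its rhesus-array levels were 14.69 and 14.63 in cortex and 2.92, 3.20 and 3.41 (lowest, median, highest) in the rest. No array outside cortex came within 10 log2 units of cortex, and the measured differences were 11.57 ± 0.060 and 11.49 ± 0.057 (SE of the limma fit, adjusted p = 1.24e-09 and 3.48e-10). As GPM6A was not above the unspiked controls on any array outside cortex, these values carry the background of its probes. Set against the control level, cortex was higher by at least 11.32 and 10.87. VSNL1, a calcium sensor of neurons, stood at 13.26 and 13.41 in cortex on the human arrays and at 3.08, 3.82 and 4.67 (lowest, median, highest) in the other sources. The rhesus arrays put it at 14.50 and 14.46 in cortex and at 4.05, 5.17 and 5.94 elsewhere. Its differences were almost equal on the array types, 9.55 ± 0.28 and 9.46 ± 0.17 (adjusted p = 1.83e-06 and 5.60e-08).

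STMN2, a stathmin that binds tubulin in growing neurites, reached 13.68 and 13.75 on the human cortex arrays, and the rest had 2.67, 3.23 and 6.40 (lowest, median, highest). The rhesus cortex arrays gave 13.01 and 13.05, against 2.80, 3.92 and 6.55 elsewhere. GAP43, a growth cone protein, had 12.60 and 12.60 in cortex and 2.31, 4.24 and 7.80 in the other sources on the human arrays, and 12.45 and 12.42 in cortex and 3.43, 4.26 and 7.68 elsewhere on the rhesus arrays. Both genes were far higher in cortex although fibroblasts carried a clear second level, given below. The cortex differences were 9.71 ± 0.26 and 8.65 ± 0.26 for STMN2 (adjusted p = 1.16e-06 and 4.97e-07). For GAP43 they were 8.11 ± 0.43 and 7.46 ± 0.13 (adjusted p = 2.64e-05 and 4.12e-08).

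Of the SNARE machinery, 8 of 8 genes on the human arrays and 4 of 4 on the rhesus arrays were higher in cortex, with medians of 4.59 and 2.56. SNAP25, a plasma membrane SNARE, had the largest difference of the group on the human arrays at 9.36 ± 0.16 (adjusted p = 1.64e-07), with 13.92 and 13.94 in cortex and 3.55, 4.31 and 5.96 (lowest, median, highest) in the rest. STX1A, the syntaxin partner of SNAP25, had 9.71 and 9.82 in cortex and 4.09, 5.01 and 6.0 elsewhere on the human arrays. Its rhesus-array levels were 9.65 and 9.82 in cortex and 3.08, 3.28 and 3.78 elsewhere. Cortex lay above every other array on both types. VAMP1, a vesicle SNARE, gave 7.47 and 7.35 in cortex and 2.20, 4.07 and 4.54 in the rest on the human arrays, and 5.68 and 5.24 in cortex and 3.43, 3.50 and 3.62 elsewhere on the rhesus arrays. CPLX2, a complexin that binds the assembled SNARE complex, gave 7.92 and 7.86 in cortex and 3.14, 3.23 and 4.21 elsewhere on the human arrays, and 5.81 and 5.27 in cortex and 3.12, 3.31 and 4.41 elsewhere on the rhesus arrays. Their differences were 3.61 and 1.96 for VAMP1 and 4.43 and 1.98 for CPLX2 on the human and rhesus arrays. The remaining members, NSF (the ATPase that takes SNARE complexes apart), its adaptor NAPB, CPLX1 and VAMP2, were higher in cortex by 2.90 (VAMP2) to 7.43 (CPLX1) on the human arrays, and VAMP2 by 3.13 on the rhesus arrays.

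All 5 synaptotagmins on the human arrays and both on the rhesus arrays were higher in cortex. SYT1, the calcium sensor of fast release, had 13.01 and 13.10 on the human cortex arrays and 2.93, 3.58 and 5.06 (lowest, median, highest) on the others. The rhesus arrays gave 13.94 and 14.00 in cortex and 2.91, 4.49 and 6.12 elsewhere. With differences of 9.26 ± 0.12 and 9.48 ± 0.069 (adjusted p = 4.15e-08 and 1.20e-09), SYT1 was the largest of the synaptotagmins on both types. SYT4, found on dense core vesicles, had 10.70 and 10.63 in cortex and 2.46, 3.34 and 5.72 elsewhere on the human arrays, a difference of 7.21 ± 0.53 (adjusted p = 1.23e-04). Its rhesus-array levels were 12.72 and 12.61 in cortex and 2.92, 3.30 and 6.31 elsewhere, a difference of 8.67 ± 0.067 (adjusted p = 1.61e-09). SYT5, SYT11 and SYT13, read on the human arrays, differed by 4.15, 4.90 and 6.22.

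Vesicle proteins and transporters were higher in cortex for 11 of 11 genes (human arrays, median 4.82) and 5 of 5 (rhesus arrays, median 6.88). SYN2, a synapsin that tethers vesicles, had 10.99 and 11.02 in cortex and 2.46, 2.48 and 2.78 (lowest, median, highest) in the rest on the human arrays, a difference of 8.49 ± 0.069 (adjusted p = 7.10e-09). SYN2 had 9.31 and 9.39 in cortex and 2.23, 2.28 and 4.01 elsewhere on the rhesus arrays, which differed by 6.72 ± 0.13 (adjusted p = 6.34e-08). SLC17A7, the vesicular glutamate transporter of cortical neurons, was flat outside cortex on both types: 8.16 and 8.14 in cortex and 3.26, 3.32 and 3.41 elsewhere on the human arrays, and 10.26 and 10.24 in cortex and 2.14, 2.22 and 2.31 elsewhere on the rhesus arrays. SV2B, a vesicle glycoprotein, had 7.10 and 6.49 in cortex and 2.21, 2.45 and 3.28 elsewhere on the human arrays. Its rhesus-array probe set had 12.17 and 12.12 in cortex and 3.03, 5.38 and 6.99 elsewhere, so the sources outside cortex were further spread there. RAB3A, the vesicle GTPase, had 8.36 and 8.17 in cortex and 3.58, 3.99 and 4.37 elsewhere on the human arrays, and 10.47 and 10.45 in cortex and 3.17, 3.29 and 4.83 elsewhere on the rhesus arrays.

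SYP, the vesicle membrane protein synaptophysin, had the smallest called difference on the human arrays, 1.07 ± 0.089 (adjusted p = 2.11e-04). Its levels were 4.00 and 4.24 in cortex, 3.60 and 3.39 in pancreas, 2.92 and 2.80 in testis, 2.98 and 2.80 in thymus and 2.95 and 2.96 in fibroblasts. Only 2 of the 8 arrays outside cortex lay above the unspiked controls. With the rest raised to that level the difference was 0.78, under the minimum of 1. The cortex arrays were the highest, but only by 0.63 over pancreas (adjusted p = 0.00570), which kept SYP out of the genes called higher than each other source, and without human cortex replicate 4 the overall difference was 0.96, under the minimum. SYN1, SYNGR1, SYNGR3, SV2A, RAB3C and SLC17A6 differed by 4.10 (SYNGR1) to 7.22 (RAB3C) on the human arrays, and SV2A by 6.81 on the rhesus arrays.

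In the active zone 4 of 5 genes were higher in cortex on the human arrays, namely BSN, RIMS2, PCLO and RIMS1, by 5.03 (RIMS2) to 7.19 (RIMS1), and PCLO, the one named on the rhesus arrays, was higher there by 6.29. The exception was UNC13A, a vesicle priming factor. Its brightest probe set had 4.61 and 4.63 in cortex, 4.87 and 5.15 in pancreas, 4.57 and 4.35 in testis, 4.56 and 4.60 in thymus and 4.64 and 4.48 in fibroblasts, a difference of -0.032 ± 0.090 (adjusted p = 0.809). The other UNC13A probe set had 9.28 and 9.11 in cortex and between 2.11 and 2.69 on the 8 other arrays. The result for this gene thus rested on which probe set was read.

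All 4 endocytosis genes were higher in cortex on both types. DNM1, the dynamin of nerve endings, had 9.69 and 9.66 in cortex and 4.05, 4.30 and 5.01 (lowest, median, highest) elsewhere on the human arrays, and 12.34 and 12.35 in cortex and 3.50, 4.30 and 6.80 elsewhere on the rhesus arrays. SH3GL2, an endophilin, differed by 7.01 and 6.35, AMPH, amphiphysin, by 6.52 and 7.02, and SYNJ1, the lipid phosphatase synaptojanin, by 3.81 and 3.66 (human and rhesus arrays).

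Postsynaptic genes were called higher in cortex for 6 of 7 on the human and 6 of 6 on the rhesus arrays. NRGN, which binds calmodulin in dendrites, had the largest difference of the group: 11.84 and 11.92 in cortex and 2.42, 2.44 and 2.47 (lowest, median, highest) elsewhere on the human arrays, and 12.85 and 12.81 in cortex and 2.13, 2.15 and 2.22 elsewhere on the rhesus arrays. The differences were 9.44 ± 0.023 and 10.68 ± 0.027 (adjusted p = 1.22e-10 and 1.28e-10), and all arrays outside cortex lay below the unspiked controls. HOMER1, a scaffold of glutamate receptors, had 11.47 and 11.47 in cortex and 3.62, 5.39 and 7.72 elsewhere on the human arrays, and 10.60 and 10.81 in cortex and 4.28, 6.11 and 8.40 elsewhere on the rhesus arrays. SHANK2, another scaffold, had 9.42 and 9.49 in cortex and 2.24, 4.18 and 6.50 elsewhere on the human arrays, and 8.41 and 8.69 in cortex and 4.63, 6.001 and 6.87 elsewhere on the rhesus arrays. The highest non-cortex arrays of these scaffolds came within 4 log2 units of cortex on both types. CAMK2A, a calcium-dependent kinase of the postsynaptic density, differed by 6.95 and 6.41, NLGN1, an adhesion protein, by 4.76 and 4.34, and GPHN, the scaffold of inhibitory synapses, by 1.87 and 1.89.

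DLG4, a central scaffold of excitatory synapses, was not called. Its levels on the human arrays were 4.42 and 4.63 in cortex, 6.31 and 3.69 in pancreas, 3.84 and 3.84 in testis, 3.85 and 3.85 in thymus and 3.23 and 3.29 in fibroblasts. One pancreas array was higher than both cortex arrays and the other was lower, and the difference was 0.54 ± 0.60 (adjusted p = 0.584). Its other probe set had 3.59 and 3.39 in cortex, a difference of 0.45 (adjusted p = 7.75e-04) that missed the minimum of 1.

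Counted by probe set, 74 of the 99 on the human arrays were higher in cortex, 2 were lower and 23 were not called. All 44 of 44 on the rhesus arrays were higher. Calls were not counted over all probe sets, and the shares of all genes above are by brightest probe set. Among genes with several probe sets, all were higher for 15 of 32 genes on the human and 11 of 11 on the rhesus arrays, and 43 of 44 genes had at least 1 higher probe set on the human arrays. The lower probe sets belonged to NSF (-1.14, adjusted p = 0.0154) and SYNGR1 (-1.30, adjusted p = 5.85e-04), whose brightest probe sets were higher in cortex by 4.08 and 4.10.

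**Figure D2:**
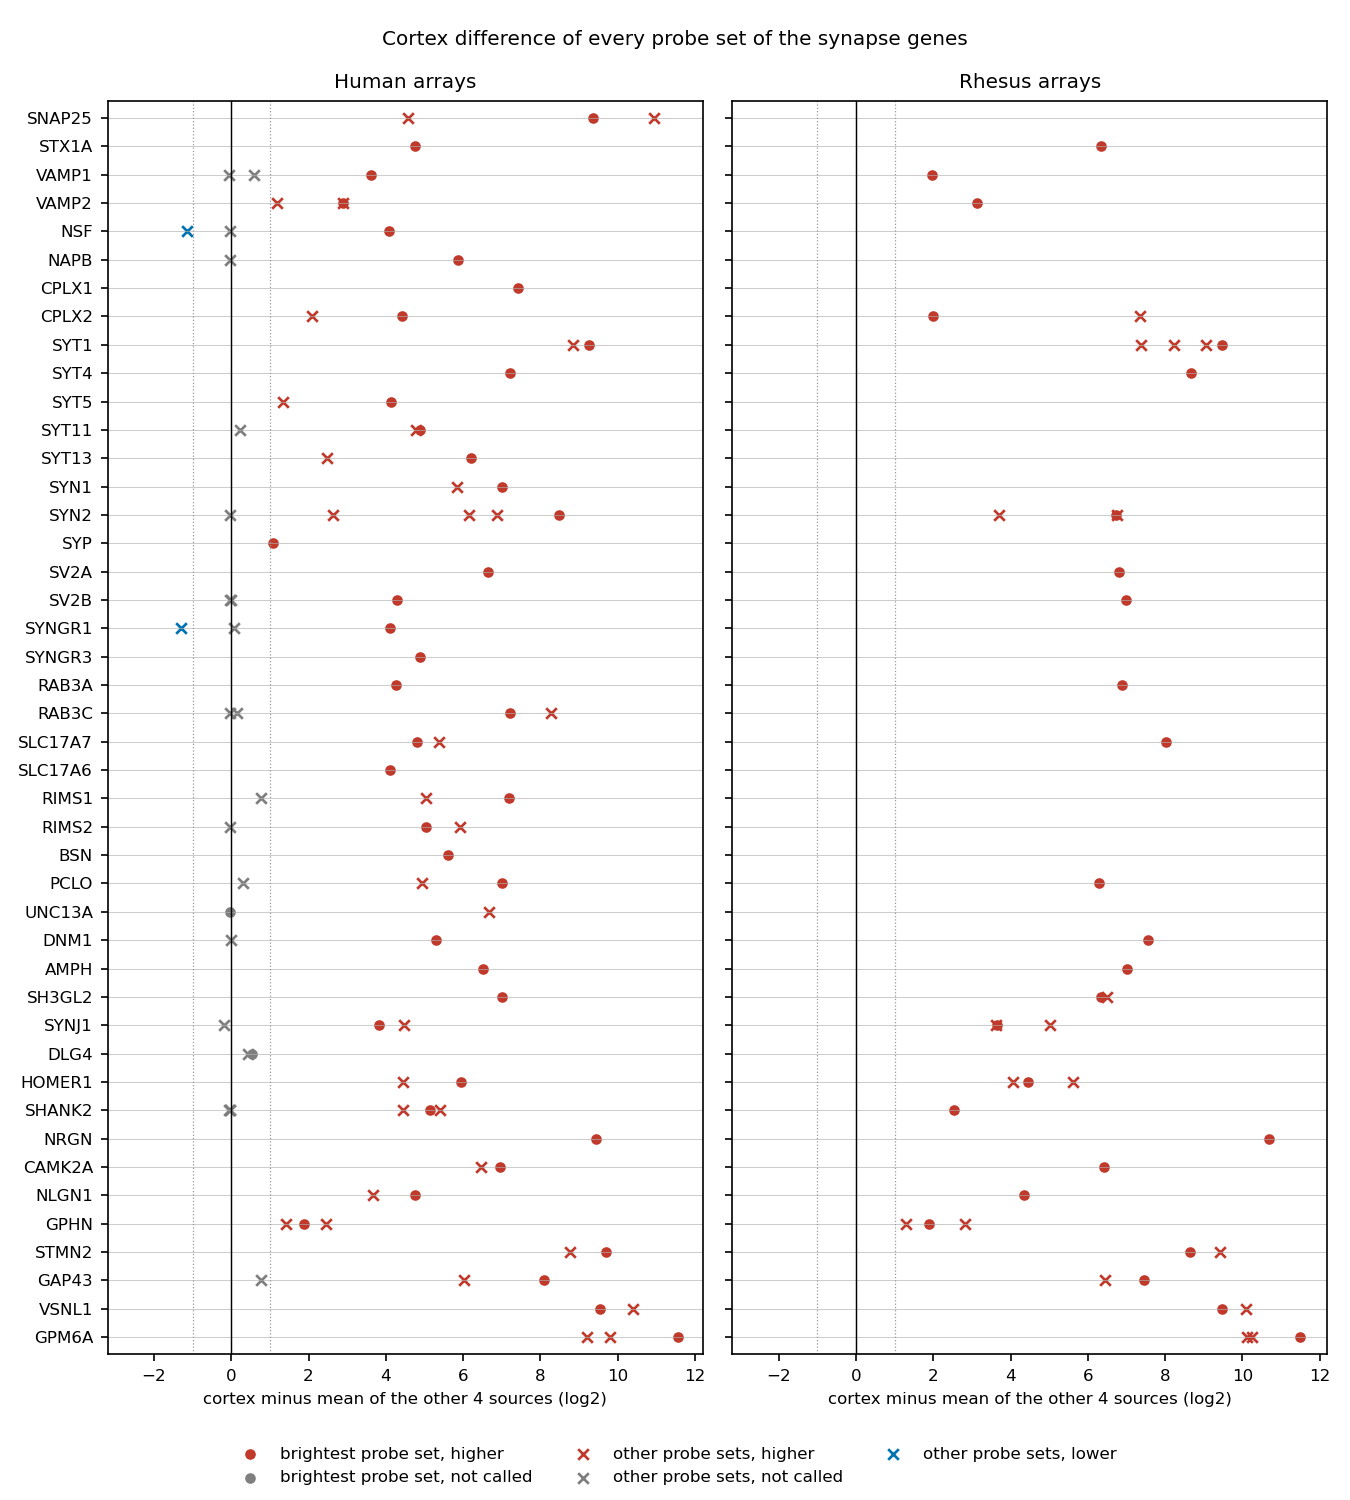
Log2 difference of cortex from the mean of the other 4 sources for every probe set of each gene, on the human arrays (left) and the rhesus arrays (right), with circles for the brightest and crosses for the other probe sets, red for higher, blue for lower and grey for not called, and dotted lines at a difference of 1 in either direction. Grey and blue crosses lie only in the human-array panel, where 74 of 99 probe sets were higher, against 44 of 44 on the rhesus arrays. These counts were not made over all probe sets.

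Outside cortex, the genes differed in where and whether a second source stood out. Of the 44 genes on the human arrays, 11 had no array outside cortex above the unspiked controls, namely CPLX1, SYT5, SYN2, SV2B, RAB3C, SLC17A6, BSN, PCLO, AMPH, NRGN and GPM6A. Of 26 on the rhesus arrays, 8 had none, namely STX1A, VAMP1, SLC17A7, PCLO, AMPH, NRGN, CAMK2A and GPM6A. PCLO, AMPH, NRGN and GPM6A were in both groups. These lists rest on the brightest probe set: another human-array probe set of SYN2 had 3.38 and 3.54 in testis, above the controls. Both arrays lay above these controls for 44 genes in cortex, 26 in pancreas, 24 in testis, 19 in thymus and 19 in fibroblasts on the human arrays, and for 26, 15, 12, 8 and 12 on the rhesus arrays. The source with the highest mean outside cortex was pancreas for 25, testis for 9, thymus for 3 and fibroblasts for 7 genes on the human arrays, and for 12, 6, 3 and 5 on the rhesus arrays. This ranking includes genes with no array outside cortex above the controls. BSN on the human arrays counted for pancreas at 1.81, against 1.79 to 1.80 elsewhere, and NRGN on the rhesus arrays at 2.19, against 2.13 to 2.15. Neither the ranking nor the counts above the controls were made over all genes. Many of these second levels lay close to the others, and those that passed the test are taken source by source. Calls outside cortex often rested on 1 probe set: of 17 human-array calls of a higher source, 13 were of genes with further probe sets, and these were all called higher for 3, some for 2 and none for 8. On the rhesus arrays 12 of 18 such calls had further probe sets, with all called higher for 5, some for 3 and none for 4, and on neither type was one called the opposite way.

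Pancreas, set against the mean of testis, thymus and fibroblasts, was higher for 5 of 44 genes (11.4%) on the human arrays, where 5.34% of all genes were, and for 7 of 26 (26.9%) on the rhesus arrays, where 9.86% were. It was lower for 2 of 44 and 3 of 26, where 16.0% and 24.4% of all genes were. The median difference of the genes was 0.137 and 0.072, against 0.043 and -0.055 over all genes. Without pancreas replicate 3 the human-array counts were 3 higher and 4 lower, and without pancreas replicate 1 the rhesus arrays had 5 lower. SYT4 and NLGN1 were called higher on both array types.

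SYT4 had 6.28 and 6.31 in pancreas on the rhesus arrays, against 2.92 and 3.11 in testis, 3.15 and 3.18 in thymus and 3.59 and 3.41 in fibroblasts, and the pancreas arrays were clear of all others outside cortex (3.07 ± 0.070, adjusted p = 3.03e-07). The human arrays had 5.72 and 3.83 in pancreas, against 3.01 and 3.29 in testis, 2.46 and 3.40 in thymus and 2.51 and 3.45 in fibroblasts (1.76 ± 0.55, adjusted p = 0.0344). This human-array call was fragile: without pancreas replicate 3 the difference was 0.81 (adjusted p = 0.208), and the adjusted p was 0.0569 to 0.0682 when either cortex array, either testis array, thymus replicate 3 or fibroblasts replicate 3 was left out. NLGN1 had 4.97 and 3.91 in pancreas, against 3.41 and 3.40 in testis, 3.21 and 3.29 in thymus and 3.37 and 3.38 in fibroblasts on the human arrays (1.09 ± 0.25, adjusted p = 0.0120), 0.56 without pancreas replicate 3, 0.96 with array medians subtracted and 0.17 in its other probe set, which was not called. Its rhesus-array levels were 4.61 and 5.82 in pancreas, against 3.49 and 3.29 in testis, 3.09 and 3.21 in thymus and 3.48 and 3.47 in fibroblasts (1.88 ± 0.29, adjusted p = 0.00147). Both pancreas arrays of each type exceeded the 6 other arrays for NLGN1, with a wide gap inside the pair.

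SNAP25 and SYT13, read on the human arrays, were both higher in pancreas. SNAP25 had 5.96 and 5.64 there, against 4.37 and 4.25 in testis, 4.12 and 3.55 in thymus and 4.22 and 4.43 in fibroblasts (1.64 ± 0.16, adjusted p = 4.64e-04), and of its other probe sets, 1 was higher by 1.95 (adjusted p = 0.00400) and 1, which lay below the unspiked controls outside cortex, differed by 0.035. SYT13, a synaptotagmin without the usual calcium-binding residues, had 4.57 and 5.45 in pancreas, against 2.90 and 2.75 in testis, 2.70 and 2.69 in thymus and 2.67 and 2.71 in fibroblasts (2.27 ± 0.22, adjusted p = 3.72e-04). The other SYT13 probe set differed by 0.99 (adjusted p = 0.0543). Outside cortex SYT13 lay above the unspiked controls in pancreas only. SHANK2 had 6.50 and 6.09 in pancreas, against 4.51 and 4.56 in testis, 3.84 and 3.85 in thymus and 2.86 and 2.24 in fibroblasts on the human arrays (2.65 ± 0.18, adjusted p = 8.87e-05), and of its 5 other probe sets 2 were called higher. The rhesus-array probe set did not do this: it had 6.05 and 4.63 in pancreas, against 5.92 and 6.02 in testis, 6.87 and 6.75 in thymus and 5.98 and 5.85 in fibroblasts (-0.89, adjusted p = 0.0529).

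The other 5 pancreas calls were made on the rhesus arrays. SV2B had 6.70 and 6.99 in pancreas, against 5.17 and 5.29 in testis, 5.48 and 5.67 in thymus and 3.05 and 3.03 in fibroblasts (2.23 ± 0.089, adjusted p = 3.00e-06). SH3GL2 had 5.86 and 5.42 in pancreas, against 5.11 and 4.60 in testis, 3.08 and 3.06 in thymus and 4.01 and 3.76 in fibroblasts (1.70 ± 0.17, adjusted p = 2.22e-04). Testis came next to pancreas for SH3GL2 and thymus for SV2B. CPLX2 had 4.41 and 4.27 in pancreas, against 3.12 and 3.13 in testis, 3.28 and 3.30 in thymus and 3.32 and 3.60 in fibroblasts (1.05 ± 0.15, adjusted p = 9.53e-04). GPHN had 7.69 and 7.56 in pancreas, against 6.67 and 6.42 in testis, 5.93 and 6.16 in thymus and 6.77 and 6.70 in fibroblasts (1.18 ± 0.089, adjusted p = 5.28e-05), so that pancreas came within about 1 log2 unit of cortex (8.62 and 8.64). STMN2 had 4.71 and 5.79 in pancreas, against 2.81 and 2.80 in testis, 3.08 and 3.13 in thymus and 6.55 and 6.20 in fibroblasts, and was thus second to fibroblasts (1.16 ± 0.26, adjusted p = 0.00843). Without 1 array, 2 of these calls fell below the minimum, CPLX2 at 0.98 without rhesus pancreas replicate 1 and STMN2 at 0.62 without rhesus pancreas replicate 2. With array medians subtracted CPLX2 (0.82), GPHN (0.95) and STMN2 (0.93) all missed it. The other probe sets of GPHN differed by -0.58 and 0.23 and that of STMN2 by -0.069, none called, and with the mean over probe sets GPHN was at 0.28 (adjusted p = 0.0814) and STMN2 at 0.55. The other probe set of CPLX2 was higher in pancreas by 1.32. On the human arrays the same genes differed by 0.52 (SV2B), 0.93 (SH3GL2), 0.89 (CPLX2), 0.46 (GPHN) and 0.16 (STMN2), none of them called.

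Pancreas was lower than the mean of the other sources outside cortex for HOMER1 on both types (-2.29 and -1.996). The same held for SYT11 on the human arrays (-3.02), and for SYT1 and SYNJ1 on the rhesus arrays (-1.16 and -1.12). For HOMER1 and SYT11 testis and fibroblasts were high, rather than pancreas alone low. HOMER1 had means of 3.81 in pancreas and 4.00 in thymus on the human arrays, and 4.76 and 4.85 on the rhesus arrays. SYT11 had 3.08 in pancreas and 3.35 in thymus, and SYT1 was lower in thymus (2.96) than in pancreas (3.625). SYT11 (-0.99) and SYT1 (-0.72) missed the minimum with the mean over probe sets, and SYNJ1 (-0.40) with quantile normalization. Markers of other cells were read beside these results. Islet markers had mean levels of 8.14 to 8.32 in pancreas and 2.47 to 3.50 in testis, thymus and fibroblasts on the human arrays, and 8.15 to 8.77 and 2.68 to 3.02 on the rhesus arrays. The peripheral nerve and Schwann cell markers had mean levels of 2.95 to 3.01 in pancreas on the human arrays, with 2 of 6 above the unspiked controls, and 3.88 to 3.97 on the rhesus arrays, with 1 of 5, and PRPH, TH, DBH and SOX10 were not above them on either type. Those above were PMP2 and NCAM1 on the human and NCAM1 on the rhesus arrays, and NCAM1, an adhesion molecule of nerve, was higher in pancreas on the human arrays (1.10, adjusted p = 0.00967) and lower on the rhesus arrays (-1.04, adjusted p = 1.01e-04). Their part in the pancreas calls was not tested. Scaling mattered here: with the spiked control transcripts set equal across arrays, the median of all genes in this contrast moved by -1.12 on the human and -1.15 on the rhesus arrays, 2 calls were left on each type (SYT13 and SHANK2, and SYT4 and SV2B), and NLGN1 on the human arrays and CPLX2 on the rhesus arrays turned to -0.031 and -0.10.

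**Figure D3:**
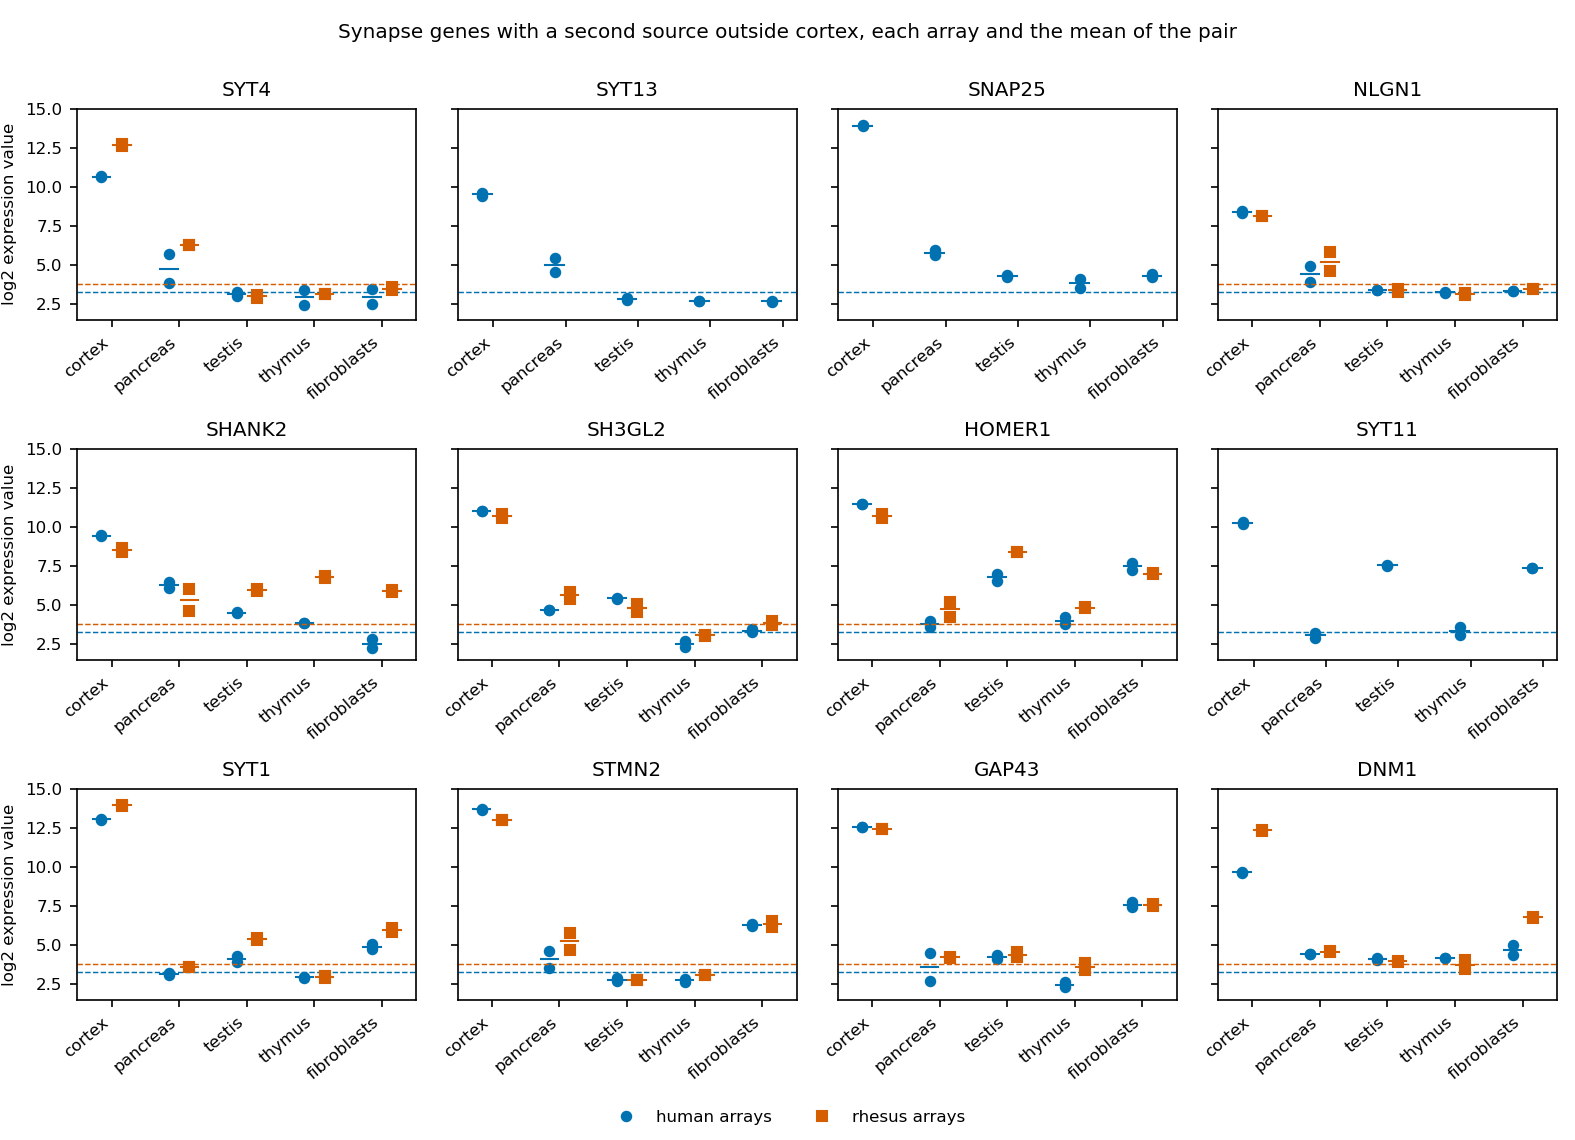
Log2 expression level by source of 12 genes with a second source outside cortex, with blue circles for human arrays, orange squares for rhesus arrays, 1 point per array, a bar at the mean of each pair and dashed lines at the highest unspiked control of each type. Pancreas stands second for SYT4 and SYT13, testis or fibroblasts for HOMER1, and fibroblasts for GAP43 and STMN2.

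Testis, set against pancreas, thymus and fibroblasts, was higher for 7 of 44 genes (15.9%) on the human arrays, where 9.14% of all genes were, and for 4 of 26 (15.4%) on the rhesus arrays, where 16.0% were. It was lower for 1 of 44 and 3 of 26, where 5.15% and 10.8% of all genes were. The rhesus-array share higher was thus close to that of all genes. HOMER1 was called on both types. It had 6.56 and 7.03 in testis, against 4.00 and 3.62 in pancreas, 3.78 and 4.22 in thymus and 7.72 and 7.26 in fibroblasts on the human arrays (1.70 ± 0.21, adjusted p = 0.00174). The rhesus arrays had 8.38 and 8.40 in testis, against 4.28 and 5.24 in pancreas, 4.90 and 4.80 in thymus and 7.05 and 6.99 in fibroblasts (2.85 ± 0.23, adjusted p = 9.31e-05). Testis was the highest source outside cortex on the rhesus arrays and came behind fibroblasts on the human arrays, and the other probe sets of HOMER1 were also higher in testis, by 2.96 on the human and by 1.52 and 2.65 on the rhesus arrays.

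SYT11, which like SYT13 lacks calcium-binding residues, had 7.52 and 7.60 in testis, against 2.92 and 3.24 in pancreas, 3.61 and 3.09 in thymus and 7.38 and 7.39 in fibroblasts on the human arrays (2.96 ± 0.15, adjusted p = 4.12e-05), so that testis and fibroblasts formed a pair well above the others. This second level was read by the brightest probe set alone. Another SYT11 probe set, with 7.90 and 7.49 in cortex, had 3.07 and 2.86 in testis, against 2.94 and 2.94 in pancreas, 2.86 and 2.83 in thymus and 2.87 and 2.91 in fibroblasts, and the remaining probe set was below the unspiked controls on all arrays. SH3GL2 had 5.47 and 5.42 in testis, against 4.72 and 4.72 in pancreas, 2.35 and 2.73 in thymus and 3.46 and 3.29 in fibroblasts (1.90 ± 0.10, adjusted p = 4.80e-05). NAPB had 8.18 and 8.46 in testis, against 6.58 and 6.99 in pancreas, 6.79 and 6.63 in thymus and 6.43 and 6.42 in fibroblasts (1.68 ± 0.12, adjusted p = 2.08e-04). For both, the testis arrays lay above the 6 other arrays. SYNGR3, a vesicle membrane protein, had 3.83 and 4.04 in testis, against 2.68 and 2.69 in pancreas, 2.35 and 2.34 in thymus and 2.50 and 2.39 in fibroblasts (1.44 ± 0.059, adjusted p = 1.79e-05). STX1A had 6.0 and 5.75 in testis, against 4.62 and 4.12 in pancreas, 4.59 and 4.09 in thymus and 5.50 and 5.39 in fibroblasts (1.15 ± 0.18, adjusted p = 0.00469). VAMP2, the main vesicle SNARE of the brain, had 6.84 and 6.40 in testis, against 5.76 and 5.62 in pancreas, 5.93 and 5.93 in thymus and 4.39 and 5.16 in fibroblasts (1.16 ± 0.22, adjusted p = 0.00832), a call that was lost without testis replicate 3 (0.94, adjusted p = 0.0614). Other probe sets of NAPB (-0.10) and VAMP2 (0.30 and 0.12) were not higher in testis by the test, and with the mean over probe sets NAPB was at 0.79 and VAMP2 at 0.53. Quantile normalization put STX1A at 0.98 and VAMP2 at 0.89, under the minimum. Neither STX1A (0.46), VAMP2 (0.42) nor SH3GL2 (0.66) was called in testis on the rhesus arrays.

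The rhesus arrays called SYN2, SYT1 and VSNL1 beside HOMER1. SYN2 had 3.46 and 4.01 in testis, against 2.30 and 2.29 in pancreas, 2.23 and 2.25 in thymus and 2.28 and 2.28 in fibroblasts (1.47 ± 0.13, adjusted p = 1.49e-04), with 1 testis array just above the unspiked controls. The other rhesus-array probe sets of SYN2 differed by -0.084 and -0.046, and the mean over the 3 was 0.45, under the minimum. SYT1 had 5.33 and 5.45 in testis, against 3.64 and 3.61 in pancreas, 2.91 and 3.01 in thymus and 6.12 and 5.88 in fibroblasts, and was below fibroblasts (1.19 ± 0.071, adjusted p = 2.28e-05). VSNL1 had 5.94 and 5.66 in testis, against 5.48 and 5.85 in pancreas, 4.07 and 4.05 in thymus and 4.26 and 4.86 in fibroblasts (1.04 ± 0.18, adjusted p = 0.00293). The testis and pancreas arrays of VSNL1 overlapped, and its difference was 0.90 to 0.98 without rhesus testis replicate 1, fibroblasts replicate 1 or pancreas replicate 1. With quantile normalization SYT1 (0.92) and VSNL1 (0.48, adjusted p = 0.0681) missed their calls. Human-array differences of these 3 genes were 0.16 (SYN2), 0.46 (SYT1) and 0.63 (VSNL1), and another human-array probe set of SYN2 was higher in testis by 1.08 (adjusted p = 2.24e-04), its remaining 3 by -0.093 to 0.079. STMN2 was lower in testis on both types (-1.60 and -2.10), and SYT4 and DNM1 on the rhesus arrays (-1.30 and -1.08, for DNM1 -0.99 without thymus replicate 2). For STMN2, SYT4 and DNM1 other sources were high, rather than testis alone low. STMN2 had human-array means of 2.80 in testis, 2.76 in thymus, 4.12 in pancreas and 6.32 in fibroblasts. On the rhesus arrays these were 2.81, 3.10, 5.25 and 6.38, and its testis and thymus means lay under the unspiked controls on both types. SYT4 had means of 3.02 in testis, 3.17 in thymus and 3.50 in fibroblasts, all under the unspiked controls, and 6.30 in pancreas. DNM1 had means of 3.97 in testis, 3.78 in thymus, 4.61 in pancreas and 6.78 in fibroblasts. Cortical neuron markers had mean levels of 5.35 to 5.38 in testis on the human arrays, with 7 of 10 above the unspiked controls, and 6.54 to 6.58 on the rhesus arrays, with 5 of 6. Their part in the testis calls was not tested.

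Fibroblasts, set against pancreas, testis and thymus, were higher for 5 of 44 genes (11.4%) on the human arrays, where 11.5% of all genes were, and for 6 of 26 (23.1%) on the rhesus arrays, where 17.8% were. They were lower for 2 of 44 and 1 of 26, where 6.66% and 13.7% of all genes were. The human-array share higher was close to that of all genes, and SYT1, HOMER1, STMN2 and GAP43 were called higher on both types. GAP43 had 7.80 and 7.42 in fibroblasts, against 4.54 and 2.74 in pancreas, 4.36 and 4.12 in testis and 2.64 and 2.31 in thymus on the human arrays (4.16 ± 0.45, adjusted p = 8.45e-04). The rhesus arrays had 7.55 and 7.68 in fibroblasts, against 4.27 and 4.18 in pancreas, 4.56 and 4.26 in testis and 3.43 and 3.87 in thymus (3.52 ± 0.13, adjusted p = 2.27e-06). The other probe sets of GAP43 were not called, with differences of 0.096 and -0.003 on the human and 0.95 on the rhesus arrays. No other gene of the 44 stood so far above the other non-cortex sources in fibroblasts on either type. STMN2 had 6.24 and 6.40 in fibroblasts, against 4.66 and 3.58 in pancreas, 2.71 and 2.88 in testis and 2.67 and 2.86 in thymus on the human arrays (3.09 ± 0.27, adjusted p = 3.20e-04), and with 6.55 and 6.20 on the rhesus arrays it was higher there by 2.66 ± 0.26 (adjusted p = 2.37e-04).

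SYT1 had 5.06 and 4.77 in fibroblasts, against 3.23 and 3.11 in pancreas, 4.32 and 3.94 in testis and 2.96 and 2.93 in thymus on the human arrays (1.5 ± 0.12, adjusted p = 2.13e-04). The rhesus-array difference of SYT1 was 2.01 ± 0.071 (adjusted p = 1.74e-06). By its brightest probe set, fibroblasts were its highest source outside cortex on both types. The other human-array probe set of SYT1 was not called, with means of 3.89 in fibroblasts and 3.89 in testis. Of its 3 other rhesus-array probe sets 1 was called higher. In another, testis (4.75) lay above fibroblasts (4.59), and in the last no array outside cortex was above the unspiked controls. HOMER1 was higher in fibroblasts by 2.62 ± 0.21 (adjusted p = 2.19e-04) on the human and by 1.02 ± 0.23 (adjusted p = 0.0113) on the rhesus arrays. The rhesus-array call of HOMER1 was lost without fibroblasts replicate 1 (0.99, adjusted p = 0.0741) or replicate 2 (1.05, adjusted p = 0.0628), and fell to 0.86 without pancreas replicate 1. SYT11 was higher by 2.72 ± 0.15 (adjusted p = 4.27e-05) on the human arrays by its brightest probe set, by -0.024 and -0.007 in its other probe sets, and by 0.90 with the mean over the probe sets, under the minimum. DNM1 had 6.76 and 6.80 in fibroblasts, against 4.55 and 4.66 in pancreas, 3.96 and 3.98 in testis and 3.50 and 4.05 in thymus on the rhesus arrays (2.66 ± 0.14, adjusted p = 8.83e-06). RAB3A had 4.18 and 4.83 there, against 3.42 and 3.34 in pancreas, 3.24 and 3.17 in testis and 3.22 and 3.20 in thymus (1.24 ± 0.15, adjusted p = 7.00e-04), and 0.92 without fibroblasts replicate 2. The human arrays gave 0.44 for DNM1 and 0.36 for RAB3A, neither called. Lower in fibroblasts were VAMP2 (-1.30, and -0.92 without fibroblasts replicate 3) and SHANK2 (-2.34) on the human arrays, where 4 genes were lower without fibroblasts replicate 4 or pancreas replicate 4, and SV2B (-2.84) on the rhesus arrays. The spiked-control scaling moved the median of all genes in this contrast by 0.81 and 0.92, gave 11 genes higher and 1 lower on the human arrays, and put VAMP2 at -0.50 (adjusted p = 0.0684). With the mean over probe sets VAMP2 (-0.53) and SHANK2 (-0.63) missed the minimum, and quantile normalization put the rhesus-array difference of HOMER1 at 0.91 (adjusted p = 0.0551). Cortical neuron markers had mean levels of 3.89 to 3.95 in fibroblasts on the human arrays, with 2 of 10 above the unspiked controls, and close to 5.87 on the rhesus arrays, with 3 of 6. Their part in the fibroblast calls was not tested.

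Thymus was called higher for the fewest of these genes. Set against pancreas, testis and fibroblasts it was called higher for 0 of 44 on the human arrays, where 9.29% of all genes were, with 2 genes higher at an unadjusted limma p under 0.05, and likewise 0 by an ordinary analysis of variance contrast. Without pancreas replicate 3 or replicate 4 it was higher for 1. On the rhesus arrays it was higher for 1 of 26, where 15.6% of all genes were. It was lower for 6 of 44 (13.6%) and 8 of 26 (30.8%), where 8.43% and 16.2% of all genes were. SYT1, SH3GL2, HOMER1, STMN2 and GAP43 were lower on both types. SYT1 differed by -1.12 and -2.04, SH3GL2 by -1.97 and -1.72, HOMER1 by -2.03 and -1.88, STMN2 by -1.65 and -1.71, and GAP43 by -2.69 and -1.77 on the human and rhesus arrays. Thymus means lay under the unspiked controls for SYT1 (2.95 and 2.96), SH3GL2 (2.54 and 3.07) and STMN2 (2.76 and 3.10) on both types. The same held for the means of GAP43 (2.47 and 3.65), although 1 rhesus thymus array (3.87) lay above the controls. The sizes of these differences thus carry probe background. SYT11 was lower on the human arrays (-2.66), and SYT4 (-1.10), DNM1 (-1.34) and VSNL1 (-1.29) on the rhesus arrays. The thymus mean of DNM1 (3.78) was also just under the controls. Several of these genes were not low in thymus alone. Pancreas had lower means than thymus for SYT11 (3.08 against 3.35) and HOMER1 (3.81 against 4.00 on the human and 4.76 against 4.85 on the rhesus arrays). STMN2 had testis means of 2.80 and 2.81, under the controls as in thymus. For SYT4 only pancreas was high (6.30), and testis (3.02), thymus (3.17) and fibroblasts (3.50) all lay under the unspiked controls. The human-array call of GAP43 was lost without thymus replicate 4 (-2.53, adjusted p = 0.0533). With the mean over probe sets GAP43 (-0.92) and SYT11 (-0.93) on the human arrays and VSNL1 (-0.97) on the rhesus arrays missed the minimum, and under the spiked-control scaling so did SYT1 on the human (-0.86) and SYT4 on the rhesus arrays (-0.87). The gene called higher was SHANK2, with 6.87 and 6.75 in thymus, against 6.05 and 4.63 in pancreas, 5.92 and 6.02 in testis and 5.98 and 5.85 in fibroblasts (1.07 ± 0.34, adjusted p = 0.0409). Its call was lost without any 1 of the rhesus arrays except pancreas replicate 1, with an adjusted p of 0.0642 to 0.183, or a difference of 0.83 in the case of pancreas replicate 2. SV2A had 4.94 and 5.49 in thymus on the human arrays, against 3.04 and 5.13 in pancreas, 4.42 and 3.34 in testis and 2.64 and 2.83 in fibroblasts, a difference of 1.65 ± 0.58 that did not pass (adjusted p = 0.0898), and was chosen for mention after its value was seen.

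**Figure D4:**
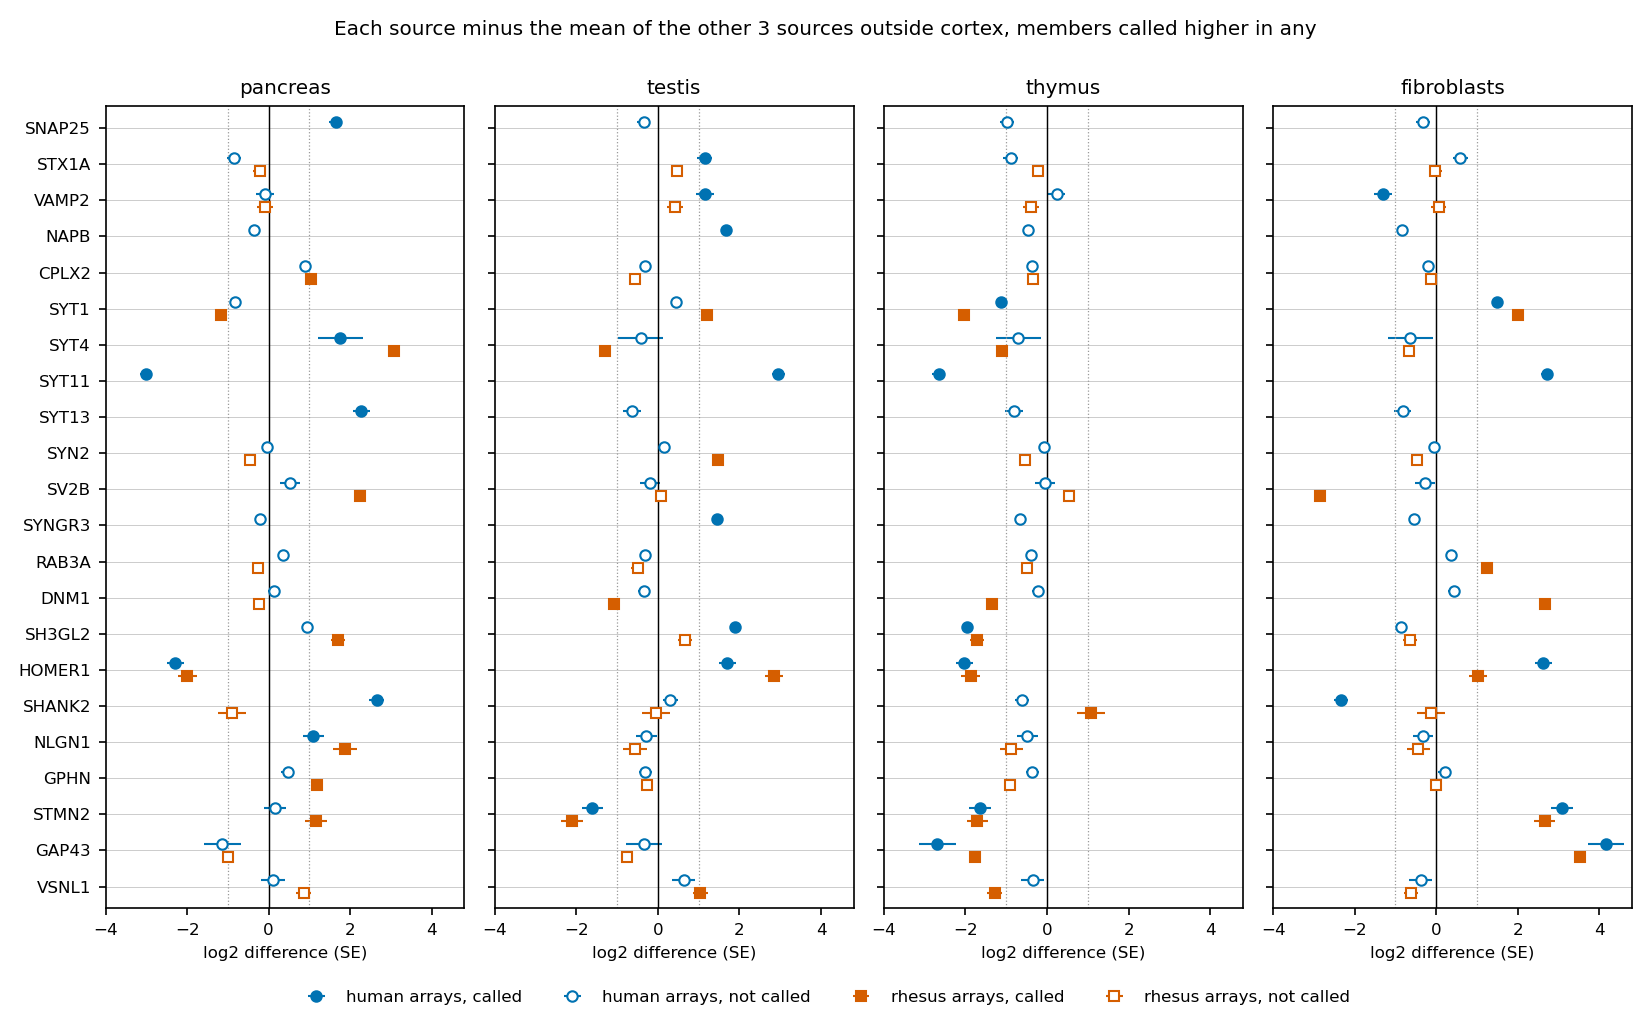
Log2 difference of pancreas, testis, thymus and fibroblasts (1 panel each) from the mean of the other 3 sources outside cortex for the 22 genes called higher in at least 1 of them, with error bars of 1 SE of the limma fit, blue for human and orange for rhesus arrays, and filled symbols for called differences. The called genes differ from panel to panel, and under the spiked-control scaling the pancreas values of NLGN1 (human arrays) and CPLX2 (rhesus arrays) turn below 0.

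Related genes were read for the same contrasts. Of 59 other neuronal synapse genes, 49 were named on the human and 34 on the rhesus arrays, and cortex was higher for 35 (71.4%) and 23 (67.6%) and lower for 0 and 1 (NLGN4X), with medians of 3.98 and 3.09. SNCB, a synuclein of nerve endings, differed by 6.75 and 8.41, and DLG2, a scaffold related to DLG4, by 6.42 and 8.08. In pancreas 3 of these genes were higher on each type (6.12% and 8.82%) and 1 and 3 were lower (2.04% and 8.82%), where 5.34% and 9.86% of all genes were higher and 16.0% and 24.4% lower, so the shares higher were near those of all genes. DLG3, another scaffold of that family, was higher by 2.83 and 3.43, and BASP1, a membrane protein of nerve endings, was lower (-5.07 and -3.61). Of 40 broadly expressed relatives of the release machinery, 40 and 32 were named, and cortex was higher for 12 (30%) and 11 (34.4%) and lower for 6 (15%) and 5 (15.6%), where 11.0% and 16.6% of all genes were higher and 9.99% and 21.1% lower. GPM6B, a relative of GPM6A, was higher by 7.67 and 7.31, and the kinase CAMK2G by 4.25 and 3.84. VAMP8 and RAB27A, a SNARE and a GTPase of secretory cells, were lower in cortex (-5.55 and -5.71 for VAMP8, -4.00 and -3.20 for RAB27A). Of 23 islet and dense core granule genes, 20 and 11 were named, and pancreas was higher for 14 (70%) and 9 (81.8%) and lower for 0 and 0 than the other 3 sources outside cortex. GCG, which encodes glucagon, was higher by 11.2 and 11.3, and SCGN, a calcium-binding protein of endocrine cells, by 4.40 and 7.37. In cortex 13 (65%) and 7 (63.6%) of these granule genes were higher than in the mean of the other 4 sources and 3 (15%) and 2 (18.2%) were lower.

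The cortex difference was set against itself between the array types for the 26 genes named on both, among 11956 genes. The difference of differences was called for 13: it was smaller on the human arrays for 7 (9.60% of all genes were) and larger for 6 (10.7%). The median over the 26 was 0.086, against 0.066 over all genes. SLC17A7 (-3.21 ± 0.05, adjusted p = 8.51e-14), SV2B (-2.68 ± 0.26, adjusted p = 2.65e-06), RAB3A (-2.62 ± 0.19, adjusted p = 1.66e-07) and DNM1 (-2.26 ± 0.20, adjusted p = 1.16e-06) had smaller differences on the human arrays by more than 2 log2 units as measured. STX1A (-1.59 ± 0.24, adjusted p = 1.24e-04), NRGN (-1.24 ± 0.05, adjusted p = 1.27e-09) and SYT4 (-1.47 ± 0.54, adjusted p = 0.0461) followed. Several of these differences were measured against sources not above background, where probe sets of low level can differ in background itself. With every array outside cortex raised to at least the highest unspiked control, SLC17A7 stood at -1.64, SV2B at -3.28, STX1A at -1.19 and NRGN at -0.45, the last under the minimum of 1, with no test.

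Larger on the human arrays were SHANK2 (2.61 ± 0.38, adjusted p = 1.10e-04), CPLX2 (2.44 ± 0.16, adjusted p = 7.48e-08), SYN2 (1.77 ± 0.15, adjusted p = 8.85e-07), VAMP1 (1.66 ± 0.50, adjusted p = 0.0170), HOMER1 (1.49 ± 0.31, adjusted p = 0.00162) and STMN2 (1.07 ± 0.37, adjusted p = 0.0357). CPLX2 turned on the probe set read: its other rhesus-array probe set had 9.73 and 9.69 in cortex and a cortex difference of 7.34, and with the mean over the probe sets of a gene the array-type difference of CPLX2 was -1.40. That setting also turned SYN2 (-0.90), VAMP1 (-0.57) and SHANK2 (-0.059), so the 6 larger differences came to 0 called and the 7 smaller ones to 11. SYT4 and STMN2 lost their calls without any 1 of most arrays, and VAMP1 without cortex replicate 2 (adjusted p = 0.0894) or replicate 3 (adjusted p = 0.0646). For the other 13 genes, GPM6A, VSNL1, SYT1, GAP43, VAMP2, SV2A, PCLO, AMPH, SH3GL2, SYNJ1, CAMK2A, NLGN1 and GPHN, the array types differed by -0.49 (AMPH) to 0.71 (PCLO). Raised to the controls in the same way, PCLO differed by 1.86 and CAMK2A by 1.70, so for genes at background outside cortex the size of the array-type difference was not settled. The tables may have been normalized separately, and mismatched bases between human probes and macaque RNA were not read here, so their part in these differences was not tested.

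**Figure D5:**
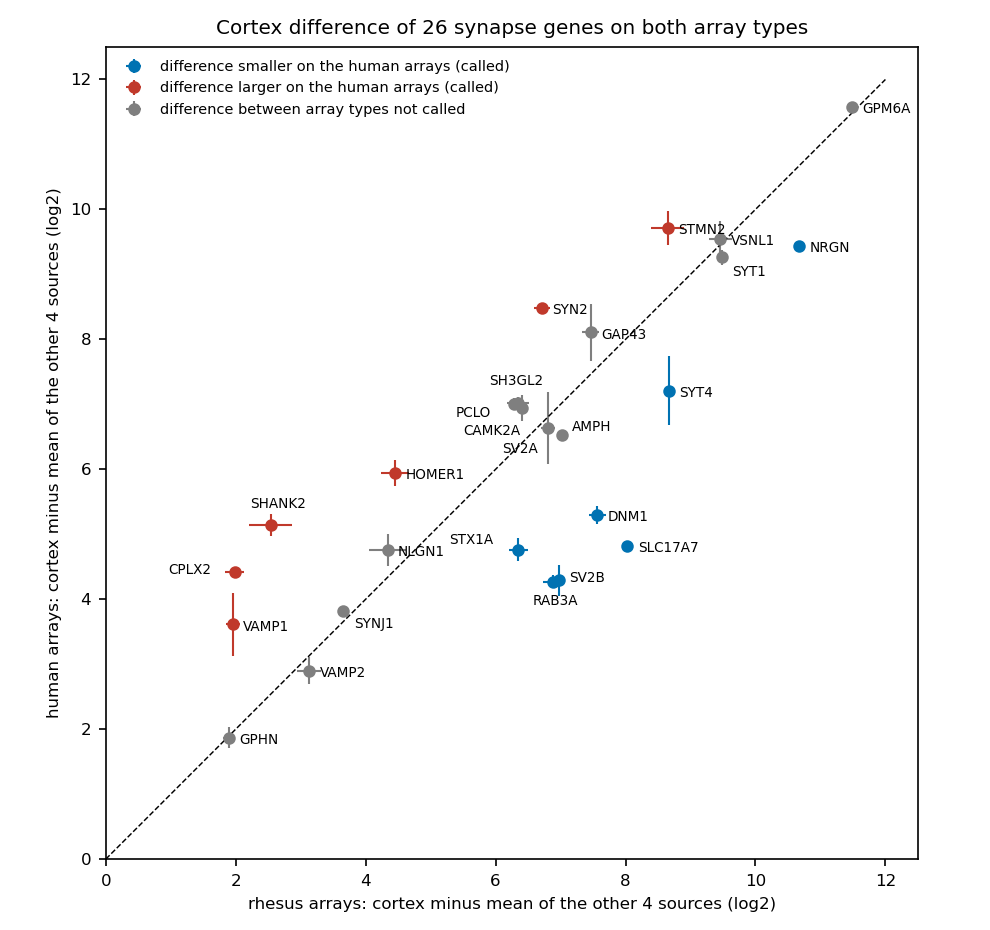
Log2 difference between cortex and the mean of the other 4 sources, with the human arrays (vertical) against the rhesus arrays (horizontal) for the 26 genes named on both, with error bars of 1 SE and a diagonal of equal differences, coloured by whether the difference between the array types was called. All 26 lie above 1 on both axes, 7 are called below the diagonal and 6 above it, of which CPLX2, SYN2, VAMP1 and SHANK2 fall below it with the mean over probe sets.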

How the data were processed

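Total RNA of 5 rhesus macaque sources was extracted with Trizol, and biotinylated cRNA made from 5 ug was hybridized to 10 human and 10 rhesus arrays. The authors deposited 1 table of log2 values per array type, a value for each probe set on each array. RMA is named in the submitters' processing notes. Its version is not given in the sources used here, nor is the set of arrays it was run on together. The labels gave the groups, and the deposited table gave the array type.

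Differences were fitted with limma 3.58.1 (lmFit, eBayes) in R 4.3.3, within each array type, over all 54613 human-array and 52766 rhesus-array probe sets that are not controls, with Benjamini-Hochberg adjustment. Calls needed an adjusted p under 0.05 with a log2 difference of 1 or more in either direction. All 10 arrays of a type shared 1 estimate of spread, and the 2 arrays per source limit the precision. A cortex difference whose other arrays all lay at or under the highest unspiked control was also given as a lower bound against that control. The array-type contrast came from a gene-level limma fit of the 20 arrays. The fits were tested on simulated data. Values in full were given for the 8 genes with the largest cortex difference on both types, genes called higher in a source outside cortex, genes not called in cortex and genes whose array-type difference was called. SYP and the human-array difference of SV2A in thymus were added after their values were seen. From each list of related genes, up to 4 with the largest differences called the same way on both types were named. The members, lists and contrasts were chosen with earlier results of these data known. Alternatives were other scalings, leaving out dim probe sets, no minimum difference, ordinary analysis of variance, the replicate number as a block, the mean over probe sets and leaving out arrays.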

Additional observations from a re-analysis of the deposited data

Results flagged for a closer look

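For 13 of the 26 genes named on both array types, the difference of cortex from the mean of the other 4 sources was not the same on the human and the rhesus arrays, by the limma contrast of the differences. The human-array difference minus the rhesus-array difference was -3.21 for SLC17A7, -2.68 for SV2B, -2.62 for RAB3A, -2.26 for DNM1, -1.59 for STX1A, -1.47 for SYT4 and -1.24 for NRGN. It was 2.61 for SHANK2, 2.44 for CPLX2, 1.77 for SYN2, 1.66 for VAMP1, 1.49 for HOMER1 and 1.07 for STMN2. The positive values of CPLX2, SYN2, VAMP1 and SHANK2 turned with the mean over the probe sets of a gene. Where arrays outside cortex were not above the unspiked controls, these values also hold differences in probe background: with those arrays raised to the control level, SLC17A7 was at -1.64 and NRGN at -0.45.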

How the results depend on the processing

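The cortex result hardly moved. The count of genes higher in cortex was 41 to 42 of 44 on the human arrays and 26 of 26 on the rhesus arrays under every alternative tried, and the count higher than in each source was 40 to 42 and 24 to 26. The counts outside cortex moved more. In this section only the listed genes were counted, so no share of all genes stands beside these counts. The spiked-control shift was the same for every gene, so counts under it are not particular to the listed genes. With spiked controls subtracted, which shifted the median of all genes by -1.12 (human arrays) and -1.15 (rhesus arrays) in pancreas, 0.81 and 0.92 in fibroblasts, 0.26 and 0.23 in thymus and 0.24 and 0.21 in cortex, pancreas was higher for 2 and 2 genes and lower for 20 and 16, thymus higher for 2 and 3, and fibroblasts higher for 11 and lower for 1 on the human arrays. NLGN1 in pancreas then turned to -0.031 on the human arrays and CPLX2 to -0.100 on the rhesus arrays. With array medians subtracted, which moved pancreas by -0.13 and -0.23, pancreas was higher for 4 and lower for 5 and thymus higher for 2 genes on the rhesus arrays. Quantile normalization left testis higher for 2 and thymus higher for 0 on the rhesus arrays. Leaving out dim probe sets gave 1 gene higher in thymus on the human arrays, and ordinary analysis of variance 0 on the rhesus arrays.

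Without the minimum difference, the human arrays had 14 genes higher and 7 lower in pancreas, 5 lower in testis, 1 higher and 13 lower in thymus and 6 lower in fibroblasts. The rhesus arrays had 11 higher and 5 lower in pancreas, 7 higher and 9 lower in testis, 4 higher and 14 lower in thymus and 6 lower in fibroblasts. With the mean over the probe sets of a gene, pancreas was lower for 1 and fibroblasts for 0 on the human arrays, thymus was higher for 2 on the rhesus arrays, UNC13A was higher in cortex at 3.32, and NSF (0.97) and SYNGR1 (0.96) missed the minimum. The array-type differences were then 11 smaller and 0 larger, with CPLX2 at -1.40, SYN2 at -0.90, VAMP1 at -0.57 and SHANK2 at -0.059. Leaving out the pancreas arrays, an alternative chosen after seeing the data, gave thymus higher for 1 gene (human arrays) and 2 genes (rhesus arrays) and fibroblasts lower for 4 on the human arrays. The cause of these changes was not tested.

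Leaving out 1 array at a time gave 3 to 7 genes higher and 2 to 4 lower in pancreas, 0 to 1 higher in thymus and 2 to 4 lower in fibroblasts on the human arrays. On the rhesus arrays it gave 3 to 5 lower in pancreas, 2 to 3 lower in testis and 0 to 1 higher in thymus.

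Replicate numbers of different sources share only a number: the correlation of the deviations of same-numbered arrays from their source means was -0.034 to 0.018 on the human and -0.025 to 0.010 on the rhesus arrays, and 0 of 10 pairs of sources were above 0.1 on either type. With the replicate block, thymus was higher for 0 genes on the rhesus arrays (SHANK2, adjusted p = 0.0517), SYT4 in pancreas on the human arrays had an adjusted p of 0.0575, and the array-type differences of STMN2 and SYT4 had 0.0523 and 0.0746. The block ended no other call.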
